A study of Mus musculus with 4 samples.

Results

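The NR4A nuclear receptors Nr4a1 (ENSMUSG00000023034), Nr4a2 (ENSMUSG00000026826) and Nr4a3 (ENSMUSG00000028341) were followed by symbol through both single-cell gene expression tables, as 3 of the 32285 genes listed. They were selected on measured values: earlier results from these same 2 libraries showed higher levels of the family in VISTA-KO than in WT CD8+ cells. The difference between genotypes in CD8+ cells is therefore given as a description. The libraries came from CD4+ and CD8+ tumor-infiltrating lymphocytes (TILs) sorted from tumors of B16, a mouse melanoma line. Both genotypes carried a floxed Vsir gene, which encodes VISTA, on the C57BL/6 background. VISTA-KO mice also carried Cre driven by the Cd4 promoter, which is active in developing T cells, and WT mice were Vsir fl/fl littermates without Cre. All animals were vaccinated with peptide on day 3 and given 100 µg of anti-CTLA-4 on days 4 and 8, and TILs were taken on day 18 after treatment. Mice inoculated with B16 were of both sexes and aged 6 to 8 weeks in the methods, which do not single out these libraries, and each pool held 5 to 6 mice according to the methods and 6 to 8 tumors according to a legend. With 1 pooled library per genotype, genotype and library cannot be told apart, the spread between mice is unknown, and no difference between genotypes was tested.

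NR4A receptors are immediate-early transcription factors that need no known hormone: their amount, set by rapid transcription, determines their activity. In T cells the antigen receptor induces them through calcium, calcineurin and NFAT, and through kinase pathways that reach CREB and MEF2. Nr4a1 (Nur77) is widely used as a reporter of recent receptor signaling, Nr4a2 (Nurr1) and Nr4a3 (NOR-1) bind the same DNA elements, and the family takes part in T cell exhaustion and in the upkeep of regulatory T cells.

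The promoters of the 3 genes are shown because the members share a feature there that was not used to choose them. Sequences are from RefSeq on GRCm38.p6 and all 3 genes matched. Windows of 300 bases run from 250 bases before to 50 bases after the start that the promoter table uses for each gene, 5′ to 3′ on the gene's strand, and lie at chr15:101266596-101266895 (plus strand), chr2:57123954-57124253 (minus strand) and chr4:48045055-48045354 (plus strand). That start is the outermost one for Nr4a2 only. The annotated gene begins at position 101253902 for Nr4a1, so that its whole window lies within the gene, and at 48045078 for Nr4a3, inside the window. The lines give the first 250 bases for Nr4a1 and Nr4a2 and the first 53 bases for Nr4a3. Capitals mark TGACG and its reverse complement CGTCA, the core of the cAMP response element (CRE) that CREB factors bind.
Nr4a1: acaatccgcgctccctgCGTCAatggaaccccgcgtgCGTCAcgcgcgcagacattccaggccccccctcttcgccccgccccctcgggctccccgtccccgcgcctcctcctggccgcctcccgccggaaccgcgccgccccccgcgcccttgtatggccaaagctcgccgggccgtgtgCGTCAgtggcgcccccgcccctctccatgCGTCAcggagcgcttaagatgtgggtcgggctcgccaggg
Nr4a2: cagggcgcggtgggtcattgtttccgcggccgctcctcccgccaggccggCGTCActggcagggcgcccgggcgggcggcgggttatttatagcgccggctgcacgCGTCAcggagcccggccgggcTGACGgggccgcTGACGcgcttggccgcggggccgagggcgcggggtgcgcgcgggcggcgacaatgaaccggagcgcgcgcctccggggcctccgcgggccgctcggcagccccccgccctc
Nr4a3: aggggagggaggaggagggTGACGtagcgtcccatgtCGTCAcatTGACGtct
Each window held 4 cores, of which 3 fall in the stretch shown for Nr4a3. By the outermost starts, all 4 lay before the gene for Nr4a2, none for Nr4a1 and none in full for Nr4a3. Of 32851 promoters of the same length, 20.8% held at least 1 core and 0.231% held 4 or more. None of the 3 windows held the full palindromic CRE (TGACGTCA, in 1.79% of promoters, which contains the core on both strands) or the NR4A monomer element (AAAGGTCA, searched on both strands, in 1.51%). The core was chosen after the sequences had been seen, and a match of letters is a description and not evidence of binding.

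Cells were gated by their own UMIs, which count RNA molecules of a gene in a cell. CD8 cells had no Cd4 UMI and at least 1 UMI of Cd8a or Cd8b1, conventional CD4 cells had Cd4 without Foxp3, regulatory cells had Foxp3 and Cd4, and Siglech cells had 2 or more UMIs of Siglech, a receptor of plasmacytoid dendritic cells. Siglech cells were kept out of the T cell gates. The WT library gave 5482 CD8, 1661 conventional CD4, 1491 regulatory and 221 Siglech cells, and the VISTA-KO library 4301, 2983, 1260 and 138. The libraries shared 144 cell barcodes among 10224 WT and 9946 VISTA-KO cells. Median UMIs per cell in the T cell gates ranged from 3922 to 8739, the highest being WT regulatory cells. CD3 and Trac summed to 4140 to 4726 CPM (UMIs of the gene per 1000000 UMIs) in the T cell gates and to 1260 CPM in WT against 631 CPM in VISTA-KO Siglech cells, where 6 plasmacytoid markers summed to 11141 and 12861 CPM. The CD4 gates also held CD8 RNA: 29.9% of WT and 19.7% of VISTA-KO conventional CD4 cells, and 50.9% and 29.1% of regulatory cells, had a Cd8a or Cd8b1 UMI, and some values are also given without these cells. The CD8 gate set no condition on Foxp3, which was found in 6.26% of its WT and 4.05% of its VISTA-KO cells. Melanoma markers summed to 2.73 to 225 CPM across gates and libraries, with no common direction between genotypes. Vsir had a ratio of VISTA-KO over WT of 0.993 (0.948 to 1.04) in CD8 cells, but reads from the 5′ end may lie outside the deleted exons, so its level checks neither the deletion nor the labels.

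Nr4a1 was higher in VISTA-KO than in WT cells in every gate. In CD8 cells it was at 127 CPM in WT against 371 CPM in VISTA-KO cells, a ratio of 2.92 (exact 95% interval 2.82 to 3.03; here and below intervals cover counting error only, not the spread between mice). In conventional CD4 cells the levels were 188 and 794 CPM, a ratio of 4.22, and in regulatory cells 197 and 802 CPM, a ratio of 4.06. Regulatory cells without a Cd8a or Cd8b1 UMI had 254 and 893 CPM, a ratio of 3.52. Siglech cells, which led with plasmacytoid markers, had 98.8 CPM in WT against 275 CPM in VISTA-KO cells, a ratio of 2.78 (2.37 to 3.27). Over the whole gates Siglech cells were lowest and CD8 cells next in both libraries, and the intervals of conventional CD4 and regulatory cells overlapped. Conventional CD4 cells without a Cd8a or Cd8b1 UMI had 194 and 901 CPM, a ratio of 4.65. Without these UMIs, the WT interval of regulatory cells (240 to 268 CPM) lay above that of conventional CD4 cells (181 to 207 CPM). In VISTA-KO these intervals still overlapped.

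T cell RNA was present among the Siglech cells, so that they were also read by Cd3e, a CD3 chain. With a Cd3e UMI (75 WT and 35 VISTA-KO cells) the ratio for Nr4a1 was 3.73. Without one it was 2.22 (1.78 to 2.77), so the higher level was also present in Siglech cells with no Cd3e RNA detected. Cells in no gate, 1369 in WT and 1264 in VISTA-KO, had a ratio of 3.52.

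Nr4a2 had another distribution. Its level was highest in CD8 cells in both libraries, at 146 CPM in WT against 243 CPM in VISTA-KO cells, a ratio of 1.66. In conventional CD4 cells the levels were 99.6 and 112 CPM, a ratio of 1.12 (1.04 to 1.21), and in regulatory cells 75.5 and 104 CPM, a ratio of 1.38 (48.8 and 78.4 CPM, a ratio of 1.61, without CD8 RNA). The conventional CD4 value moved with the CD8 RNA in that gate. Cells without a Cd8a or Cd8b1 UMI had 35.0 CPM in WT against 76.8 CPM in VISTA-KO cells, a ratio of 2.19 (1.85 to 2.61), and cells with one had 160 and 186 CPM, a ratio of 1.16. When 2 Cd4 UMIs were required, the log2 ratio turned to -0.13. In Siglech cells Nr4a2 was at 35.9 and 45.4 CPM, a ratio of 1.26 whose interval included 1 (0.906 to 1.76), and without Cd3e it was at 4.16 and 5.42 CPM against 64.0 and 118 CPM with it.

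Nr4a3 was at 31.9 CPM in WT against 78.8 CPM in VISTA-KO CD8 cells, a ratio of 2.47. Conventional CD4 cells had 40.1 and 95.7 CPM, a ratio of 2.39, and regulatory cells 36.3 and 106 CPM, a ratio of 2.92. The T cell gates of WT lay close together, and every T cell gate of VISTA-KO lay above every T cell gate of WT. In Siglech cells the ratio was 1.42 and its interval included 1 (0.968 to 2.06). Levels are not compared between the 3 genes, because differences in capture between their transcripts were not measured.

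**Figure D1:**
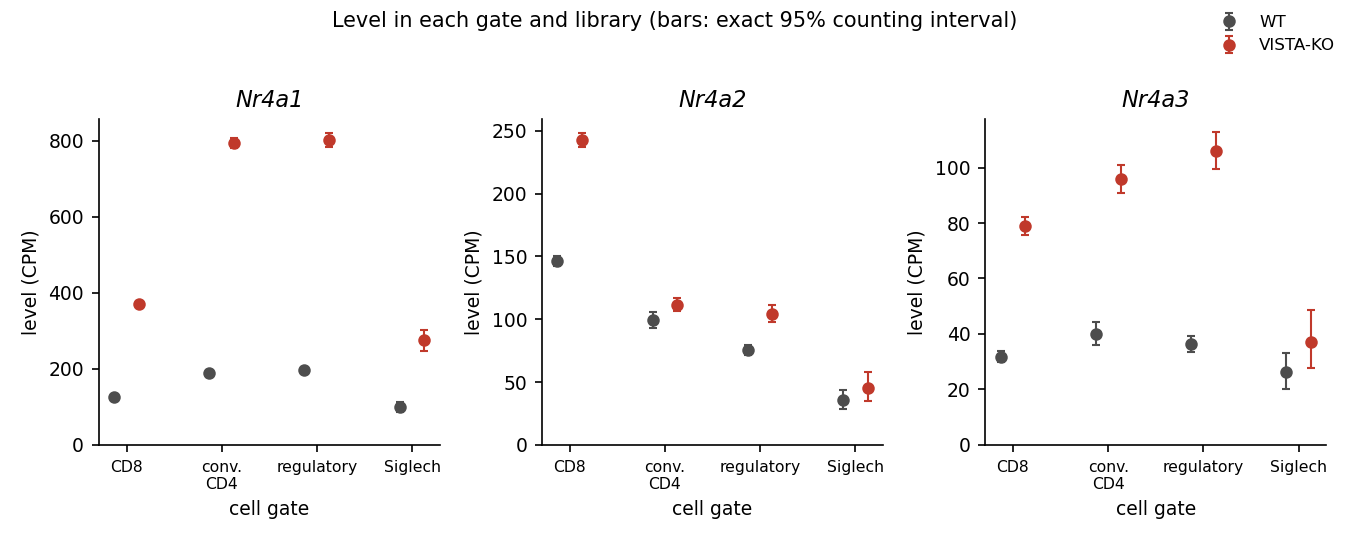
Level in CPM (vertical axis, from 0) of Nr4a1, Nr4a2 and Nr4a3 in CD8, conventional CD4, regulatory and Siglech cells of the WT (gray) and VISTA-KO (red) libraries, with exact 95% counting intervals as bars. Nr4a1 is higher in VISTA-KO in all 4 gates, and Nr4a2 is highest in CD8 cells of either library.

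Per cell, Nr4a1 was higher in VISTA-KO in the CD8 and conventional CD4 gates by 2 readings. These were the share of cells in which it was detected and the UMIs those cells held. With few UMIs per cell, a higher level per cell also raises the share detected. The readings therefore cannot tell more cells with the transcript from more transcript per cell. To compare cells at equal depth, each was thinned to 2000 UMIs, which left out 290 WT and 186 VISTA-KO CD8 cells with fewer. Nr4a1 was then found in 16.7% of WT and 35.1% of VISTA-KO CD8 cells, 21.3% and 55.3% of conventional CD4 cells, and 26.1% and 57.9% of regulatory cells. Cells with the transcript had on average 1.64 UMIs in WT and 2.43 in VISTA-KO in the CD8 gate, and 1.78 and 3.15 in the conventional CD4 gate. Without thinning, Nr4a1 was found in 30.2% and 54.7% of CD8 cells, and 0.894% of WT and 5.07% of VISTA-KO CD8 cells held more than 10 Nr4a1 UMIs. In regulatory cells these last shares were 4.49% and 18.7%.

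Nr4a2 was found in 16.1% of WT and 25.8% of VISTA-KO CD8 cells after thinning, against 7.33% and 11.7% of conventional CD4 cells and 8.78% and 13.5% of regulatory cells. Nr4a3 was found in 4.64% and 11.8% of CD8 cells, 6.68% and 14.6% of conventional CD4 cells, and 5.74% and 14.8% of regulatory cells. Siglech cells, at median depths of 9181 and 9486 UMIs before thinning, had Nr4a2 in 2.73% and 5.84% of cells, Nr4a3 in 3.18% and 4.38% and Nr4a1 in 12.7% and 35.0%. The shares of Nr4a2 and Nr4a3 in all T cell gates lay above these in each library, but some intervals overlapped. In WT the Siglech interval for Nr4a3 (1.29% to 6.45%) overlapped those of all T cell gates. In VISTA-KO the Siglech interval for Nr4a2 (2.55% to 11.2%) overlapped that of conventional CD4 cells (10.5% to 12.9%). For Nr4a1 the Siglech share of VISTA-KO was close to that of its CD8 cells. Siglech cells without Cd3e RNA also held Nr4a1. Before thinning, 5.48% of these cells in WT and 17.5% in VISTA-KO held Nr4a3, and 3.42% and 2.91% held Nr4a2. Whether this RNA was made in these cells was not tested, and Siglech cells are not used as a background for any member.

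**Figure D2:**
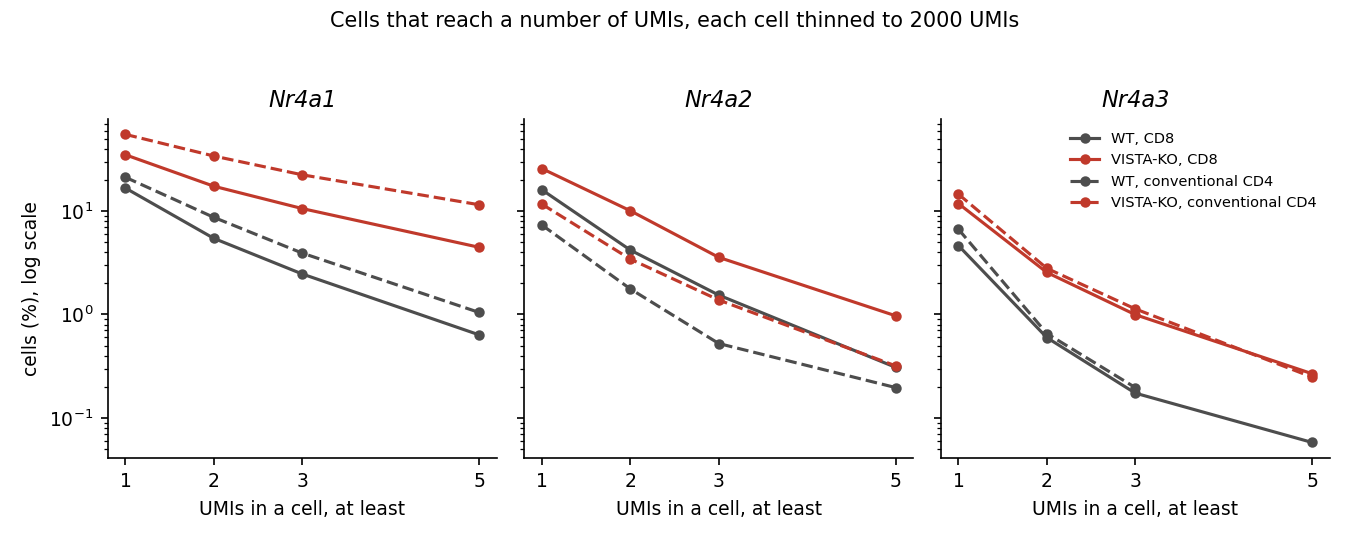
Share of CD8 (solid) and conventional CD4 cells (dashed) that held at least 1, 2, 3 or 5 UMIs (horizontal axis) of each gene after thinning to 2000 UMIs, in percent on a log axis, for WT (gray) and VISTA-KO (red); a share of 0 is not drawn. At 1 or more UMIs, Nr4a1 runs from 16.7% in WT to 35.1% in VISTA-KO CD8 cells, and the curves of VISTA-KO stay above those of WT for the same gate at each step drawn.

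The members were found in the same cell more often than the product of their shares. In thinned CD8 cells, Nr4a1 and Nr4a3 were found together in 84 WT cells where the product gives 40.3, a ratio of 2.08, and in 272 VISTA-KO cells where it gives 171, a ratio of 1.59. For Nr4a2 and Nr4a3 the ratios were 1.78 and 1.49, and for Nr4a1 and Nr4a2 they were the lowest of the 3 pairs, 1.38 and 1.19, although this pair was found together in the most cells (193 and 444). All 3 transcripts were found in 0.597% of WT and 2.48% of VISTA-KO CD8 cells, and none in 68.6% and 46.7%. In conventional CD4 and regulatory cells of both libraries the pair of Nr4a1 and Nr4a2 also had the lowest ratio of the 3 pairs, from 1.13 to 1.15. Such a ratio cannot exceed 1 over the larger share of the pair. This ceiling differs between pairs and gates and is lower in VISTA-KO, where the shares are higher, so that the ratios of the libraries are not compared.

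Against Pdcd1, which encodes the inhibitory receptor PD-1, and Tcf7, which encodes the stem-like and memory factor TCF-1, Nr4a2 and Nr4a1 had opposite patterns in CD8 cells. In WT CD8 cells Nr4a2 was at 184 CPM in cells with a Pdcd1 UMI and 52.2 CPM in cells without, a ratio of 3.53 (3.23 to 3.86). In VISTA-KO CD8 cells it was at 316 and 114 CPM, a ratio of 2.76 (2.59 to 2.95). Nr4a1 was lower with Pdcd1: 114 against 158 CPM in WT, a ratio of 0.725 (0.682 to 0.770), and 282 against 524 CPM in VISTA-KO cells, a ratio of 0.539 (0.518 to 0.560). For Nr4a3 the ratios were 1.11 and 0.996, with intervals that included 1. Cells with a Pdcd1 UMI were deeper, and when Pdcd1 was read at 2000 UMIs per cell the ratios were 2.16 and 2.19 for Nr4a2, 0.849 and 0.637 for Nr4a1, and, now with intervals above 1, 1.20 and 1.09 for Nr4a3.

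By Tcf7 the order turned around in CD8 cells. Those with a Tcf7 UMI had less Nr4a2 than cells without, at ratios of 0.427 in WT and 0.436 in VISTA-KO, and more Nr4a1, at ratios of 1.20 and 1.34. For Nr4a3 the ratios were 1.00 and 1.04. Conventional CD4 cells had ratios by Tcf7 of 0.428 and 0.536 for Nr4a2, and 1.23 and 1.09 for Nr4a1. In regulatory cells the ratios for Nr4a2 were 1.14 and 1.04, the latter with an interval that included 1. Those for Nr4a1 were 0.875 in WT and 1.23 in VISTA-KO, on either side of 1. These ratios were over all UMIs. With Tcf7 read at equal depth, both WT regulatory ratios had intervals that included 1. They were 0.885 (0.720 to 1.08) for Nr4a2 and 1.00 (0.890 to 1.13) for Nr4a1. In VISTA-KO regulatory cells they were 1.03 and 1.33. For Nr4a2 at equal depth, the WT and VISTA-KO ratios were 0.194 and 0.521 in conventional CD4 cells, and 0.411 and 0.406 in CD8 cells. In conventional CD4 cells without a Cd8a or Cd8b1 UMI they were 0.421 (0.269 to 0.639) and 0.473 (0.395 to 0.564), with overlapping intervals.

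With both genes read together, Nr4a2 formed steps in both libraries. CD8 cells with Tcf7 only had 41.1 CPM in WT against 90.6 CPM in VISTA-KO cells, cells with neither 67.0 and 143 CPM, cells with both 109 and 188 CPM, and cells with Pdcd1 only 218 and 354 CPM. The groups differed in depth, and with Pdcd1 and Tcf7 read at 2000 UMIs the middle steps merged. Cells with neither and with both were then at 109 and 114 CPM in WT and at 183 and 186 CPM in VISTA-KO, with overlapping intervals, between 48.6 and 91.7 CPM with Tcf7 only and 212 and 364 CPM with Pdcd1 only. Nr4a1 was lowest in cells with Pdcd1 only, at 103 and 248 CPM, as it was at 2000 UMIs (111 and 269 CPM). The group with the most Nr4a1 changed with the reading: it was cells with neither over all UMIs (176 and 580 CPM), and at 2000 UMIs cells with both in WT (155 CPM) and with Tcf7 only in VISTA-KO (455 CPM). Over all UMIs, VISTA-KO was above WT in each of the 4 groups for each gene, by ratios of 2.40 to 3.32 for Nr4a1, 1.63 to 2.20 for Nr4a2 and 2.31 to 3.06 for Nr4a3. Pdcd1-only cells were 40.3% of WT and 40.4% of VISTA-KO CD8 cells. Pdcd1 itself was lower in VISTA-KO, at 429 against 492 CPM in CD8 cells, whereas Nr4a2 was higher.

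**Figure D3:**
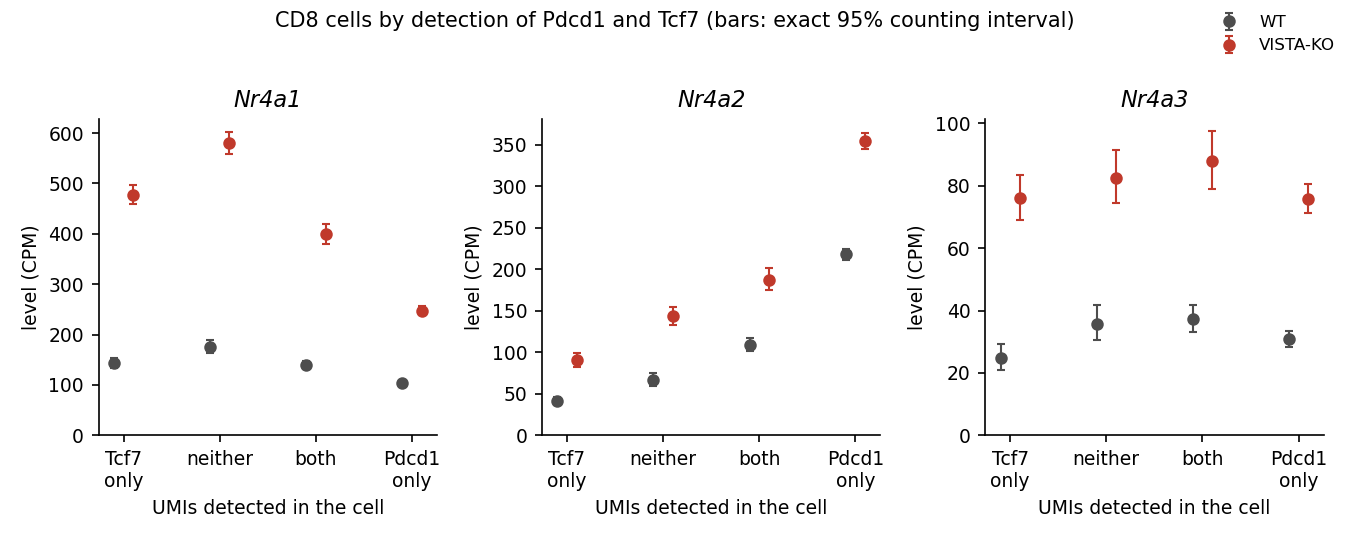
Level in CPM (vertical axis, from 0) of each gene in CD8 cells with Tcf7 only, neither, both, or Pdcd1 only, read over all UMIs, for WT (gray) and VISTA-KO (red), with exact 95% counting intervals. Nr4a2 is lowest with Tcf7 only (41.1 and 90.6 CPM) and highest with Pdcd1 only (218 and 354 CPM), its middle groups merge at equal depth, Nr4a1 is lowest with Pdcd1 only, and Nr4a3 has no such order.

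Levels also moved with the number of Pdcd1 UMIs, which rises with depth. From CD8 cells with no Pdcd1 UMI to cells with 6 or more, Nr4a2 went from 52.2 to 237 CPM in WT and, in VISTA-KO, from 114 to 418 CPM, with 75.4 and 173 CPM at 1 to 2 UMIs and 169 and 280 CPM at 3 to 5. Nr4a1 went the other way, from 158 to 109 CPM and from 524 to 244 CPM. Read from the other side in thinned cells, Pdcd1 was found in 57.5% of WT CD8 cells with Nr4a2 and 38.1% of those without, and in 35.4% of cells with Nr4a1 and 42.4% of those without. In VISTA-KO the shares were 52.4% and 32.5% for Nr4a2, and 32.6% and 40.3% for Nr4a1.

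Conventional CD4 cells had the same directions by Pdcd1. Without Cd8a or Cd8b1 RNA, the ratios of cells with Pdcd1 over cells without were 2.87 in WT and 2.56 in VISTA-KO for Nr4a2, and 0.749 and 0.780 for Nr4a1. With Pdcd1 read at 2000 UMIs the Nr4a2 ratios were 3.09 and 2.63. Over the whole gate they were 6.72 and 3.03 over all UMIs, and 2.18 and 2.13 at 2000 UMIs. In regulatory cells Nr4a2 was again higher with Pdcd1, by ratios of 3.41 in WT and 1.90 in VISTA-KO, or 1.84 and 1.78 at 2000 UMIs. Without CD8 RNA the Nr4a2 ratios were 3.61 in WT and 1.37 (1.13 to 1.66) in VISTA-KO over all UMIs. At 2000 UMIs they were 1.78 and 1.51. Over all UMIs, Nr4a1 in the whole regulatory gate had ratios of 0.994 in WT, with an interval that included 1, and 0.674 in VISTA-KO. In WT regulatory cells without CD8 RNA the Nr4a1 ratio was 1.37 over all UMIs and 1.15 (1.02 to 1.28) at 2000 UMIs.

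Levels were also read per T cell clone. A clonotype, the V gene and junction of both receptor chains, was known for 4152 WT and 3453 VISTA-KO CD8 cells, and 15 WT and 7 VISTA-KO clonotypes had at least 30 cells. Clonotypes of 1 library come from 1 pool and are not replicates of a genotype. The largest WT clonotype (1034 cells) had 111 CPM of Nr4a1, 46.6 CPM of Nr4a2 and 23.4 CPM of Nr4a3. The next in size (318 cells) had 66.2, 180 and 29.1 CPM, and the third (79 cells) 90.1, 472 and 15.7 CPM. The largest VISTA-KO clonotype (291 cells) had 171, 282 and 44.6 CPM, the next (147 cells) 191, 282 and 60.2 CPM, and the third (60 cells) 227, 599 and 133 CPM.

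Clones of WT differed widely in Nr4a2, from 17.7 to 472 CPM with a median of 65.4 CPM, and VISTA-KO clones ran from 149 to 599 CPM with a median of 282 CPM. For Nr4a1 the ranges were 26.1 to 310 CPM (median 140) and 171 to 412 CPM (median 227). For Nr4a3 they were 3.85 to 44.8 CPM (median 23.4) and 44.6 to 133 CPM (median 54.0). The WT ends for Nr4a3 rested on 1 and 5 UMIs, with intervals of 0.098 to 21.5 and 14.6 to 105 CPM. The ranges overlapped for all 3 genes: 1 of 7 VISTA-KO clonotypes lay above every WT clonotype for Nr4a1, 2 of 7 for Nr4a2 and 6 of 7 for Nr4a3. With the largest clonotype of both libraries left out, the log2 ratio of Nr4a2 in CD8 cells was 0.56, against 0.73 with it, and with every clonotype weighted alike it was 1.09.

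Clonotypes were also grouped by size. Those found in 1 cell had 60.2 CPM of Nr4a2 in WT and 155 CPM in VISTA-KO, with Pdcd1 in 30.4% and 34.1% of cells. Clonotypes of 2 to 4 cells had 158 and 231 CPM and those of 5 to 19 cells 189 and 309 CPM. Those of 20 or more cells had 160 and 339 CPM. However, 1034 of the 2177 WT cells in this last class were of the largest clonotype, at 46.6 CPM, which lowers the level of the class. The class was not read without it, so that the order by size is not compared between WT and VISTA-KO. The largest class had Pdcd1 in 66.2% and 85.4% of cells. Between the smallest and largest class Nr4a1 went from 148 to 107 CPM and from 424 to 242 CPM.

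**Figure D4:**
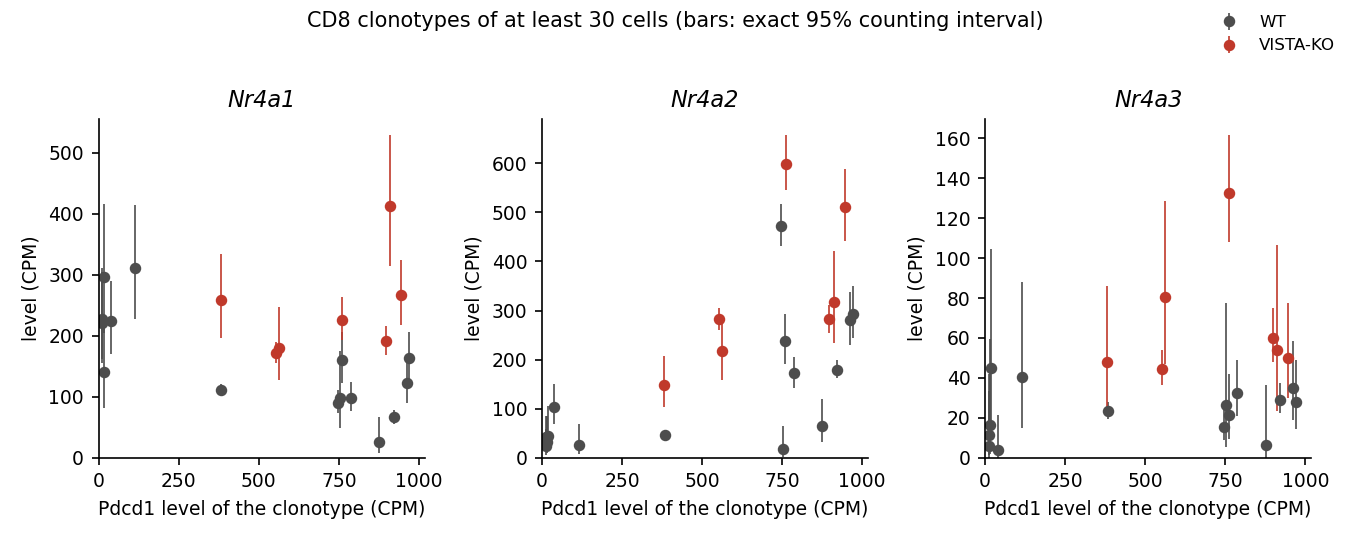
Each point is a CD8 clonotype of at least 30 cells (15 WT in gray, 7 VISTA-KO in red), with its Pdcd1 level on the horizontal and the level of Nr4a1, Nr4a2 or Nr4a3 on the vertical axis, both in CPM; bars are exact 95% counting intervals. The 6 WT clonotypes with at most 115 CPM of Pdcd1 have 23.3 to 104 CPM of Nr4a2, but low Nr4a2 is also seen at higher Pdcd1 (46.6 CPM at 383, 65.4 at 876 and 17.7 at 752 CPM of Pdcd1), and no VISTA-KO clonotype of this size had Pdcd1 below 381 CPM.

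To place the family among all genes, 5 CPM was added to each level before the log2 ratio (VISTA-KO to WT), and genes entered if either library reached 20 CPM. In CD8 cells Nr4a1 (1.51), Nr4a3 (1.18) and Nr4a2 (0.71) ranked 11, 16 and 38 of 6065 genes, whose median was -0.03. Thus 2 of the 3 members were higher by a log2 ratio of at least 1, as were 0.346% of all genes, and none was lower by as much, as were 0.247%. These are the values on which the family was chosen in CD8 cells, and nothing is read from them. In conventional CD4 cells Nr4a1 (2.05) ranked 2, Nr4a3 (1.16) 13 and Nr4a2 (0.16) 701 of 6261 genes. Again 2 members passed 1, against 0.303% of all genes. Ranks are for the whole gate. Without 5 CPM added, the log2 ratio of Nr4a2 there was 1.13 in cells without a Cd8a or Cd8b1 UMI. It was -0.13 when 2 Cd4 UMIs were required. In regulatory cells Nr4a1, Nr4a3 and Nr4a2 ranked 7, 17 and 229 of 6274 genes, and 2 members passed 1, against 0.574%. In Siglech cells Nr4a1 ranked 3 of 6405 genes and alone among the members passed 1, against 0.219%. Genes that passed 1 in all 4 gates were Nr4a1, Nfkbid, an inhibitor-of-NF-κB family member induced by antigen receptors, and Gm21887, which are 3 of the 5288 genes measured in all 4. The gates come from the same 2 libraries, so that these are not independent comparisons. The CD8 gate is among the 4, and the family was chosen on its values there. Nothing is therefore read from Nr4a1 being 1 of the 3 genes.

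**Figure D5:**
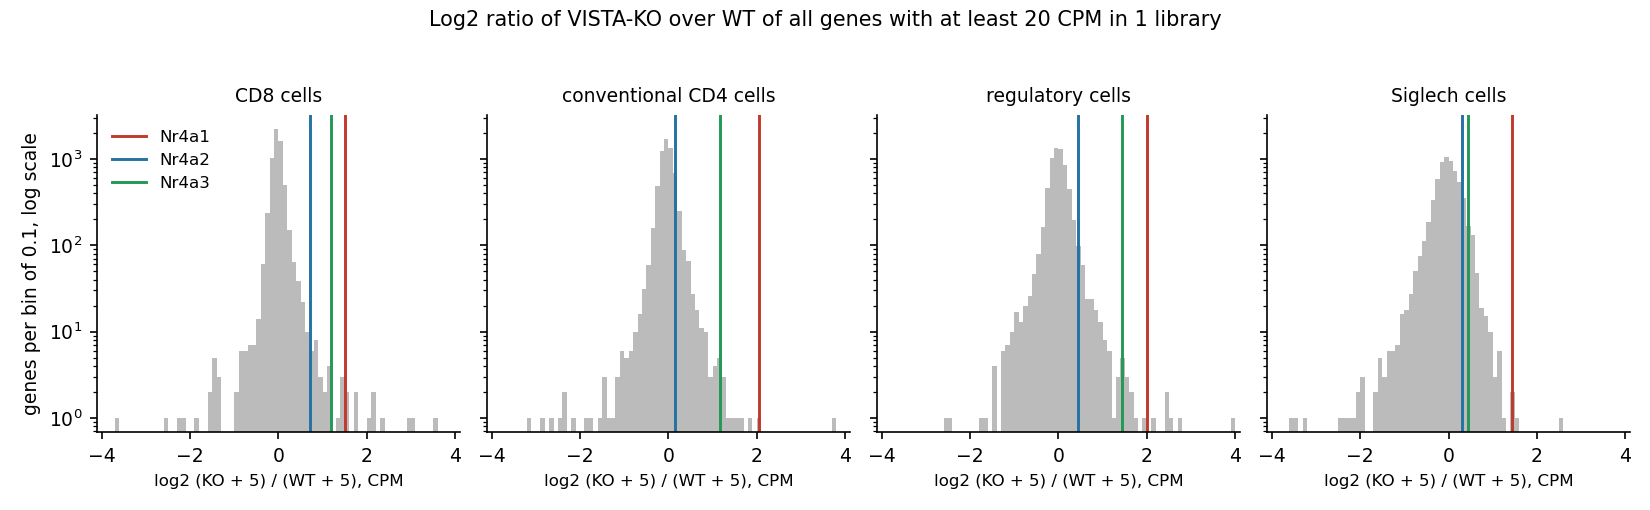
Distribution of the log2 ratio of VISTA-KO to WT, with 5 CPM added to both (horizontal axis), over all genes that reached 20 CPM in either library, as genes per bin on a log axis, in each of the 4 gates; values beyond 4 sit in the last bin, and colored lines mark the members. Nr4a1 stands at 1.43 to 2.05 in the 4 gates. Over the whole conventional CD4 gate Nr4a2 lies within the bulk at 0.16, a value that moved with the CD8 RNA in that gate.

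Genes of the pathway were taken as lists, on the same log2 scale. The lists here and below were chosen with earlier results of these data known. Their counts and medians are therefore a description and not an independent reading of a pathway. Of the inputs to NR4A transcription (calcineurin, NFAT, MEF2, CREB and their brakes), 17 of 19 were measured in CD8 cells, 9 above and 8 below 0, with a median of 0.00 and none past 1 in either direction. Conventional CD4 cells had 14 of 17 above 0 (median 0.03), regulatory cells 12 of 17 (0.03) and Siglech cells 6 of 17 (-0.23), with none past 1. The list mixes inputs and brakes, so that these counts give no direction of the pathway. Of all genes tested, 40.6% were above 0 in CD8, 40.3% in conventional CD4, 48.6% in regulatory and 46.5% in Siglech cells. The shares of all genes higher by 1, and of those lower by 1 in CD8 cells, are given above. In either direction, 43 of 6261 genes passed 1 in conventional CD4 (19 of them higher). In regulatory cells 67 of 6274 did (36 higher), and in Siglech cells 71 of 6405 (14 higher). The extremes in CD8 cells were the calcineurin subunit Ppp3cc (0.14) and the MEF2 factor Mef2d (0.07), and the calcineurin and MEF2 repressor Cabin1 (-0.24) and the histone deacetylase Hdac7 (-0.12).

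Other immediate-early genes were mostly above 0 in CD8 cells, 19 of 23, with a median of 0.22 and none past 1. Dusp5, a nuclear phosphatase for ERK, was highest, at 244 CPM in WT against 422 CPM in VISTA-KO (0.78), followed by Ier2 (0.62). Jun (-0.34) and Myc (-0.13) were lowest, so that the immediate-early genes did not all share the direction of the NR4A family. The list's median was 0.31 in conventional CD4 (1 of 24 past 1), 0.63 in regulatory (3 of 23) and 0.26 in Siglech cells (none of 22, and 1 lower by 1). Of the genes induced through the T cell receptor along with the family, 17 of 21 were above 0 in CD8 cells, with a median of 0.21 and 2 past 1, Rgcc (1.14) and Nfkbid (1.11), whereas the costimulatory receptors Tnfrsf4 (OX40, -0.87) and Tnfrsf18 (GITR, -0.25) were lowest. That list's median was 0.41 in conventional CD4 (5 of 23 past 1), 0.46 in regulatory (2 of 23, and 1 lower by 1) and -0.13 in Siglech cells (2 of 21, and 3 lower by 1).

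Exhaustion genes tied to NR4A and TOX were split. In CD8 cells 6 were above and 8 below 0, with a median of -0.04, between Bhlhe40 (0.49) and Havcr2, which encodes TIM-3 (0.40), at the top and Ikzf2 (-0.35) and Tigit (-0.22) at the bottom. The median was -0.34 in conventional CD4 and -0.18 in regulatory cells. These gates held more CD8 RNA in WT than in VISTA-KO. Cd8a and Cd8b1 summed to 894 against 441 CPM in conventional CD4 and 848 against 387 CPM in regulatory cells. No list was read without the cells that held CD8 RNA, and its part in the medians was not tested. Memory and quiescence genes had 9 of 12 above 0 in CD8 cells and a median of 0.20, with Klf2 (0.53) and Ccr7 (0.43), which keep T cells recirculating, highest and Slamf6 (-0.19) and Id3 (-0.17) lowest. Conventional CD4 cells had 11 of 11 above 0 (median 0.32), regulatory cells 9 of 10 (0.36, with 2 past 1) and Siglech cells 4 of 9 (-0.20). The Siglech gate held less T cell RNA in VISTA-KO, with CD3 and Trac at 631 CPM against 1260 CPM in WT. The part of this RNA in the Siglech medians of this and the other lists was not tested. In CD8 cells the dimer partners and cofactors of the receptors lay between -0.17 (Ncoa1) and 0.07 (Ncoa3), with Ncor1 at -0.15 and Bcl2 at 0.00. There 2 of 9 were above 0, with a median of -0.11. Conventional CD4 cells had 0 of 9 above 0 (median -0.09), regulatory cells 3 of 9 (-0.06) and Siglech cells 4 of 9 (-0.05). Heat shock genes, which tissue digestion can also raise, had 5 of 10 above 0 and a median of 0.01 in CD8 cells, from Hspa1b (-0.48) and Hspa1a (-0.29) to Dnaja1 (0.19) and Hspe1 (0.24), and medians of -0.11 and -0.19 in conventional CD4 and regulatory cells. The part of digestion in the members' levels was not tested.

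The genes most like each member were found by Pearson's r of log2 levels over 26 groups of cells, which were the 4 Pdcd1 and Tcf7 groups of each T cell gate and the Siglech cells, in both libraries. The groups share libraries and depth, so that r is a description. Groups of both genotypes entered together, so that r also holds the difference between the libraries. In CD8 cells the family was chosen on that difference, and r within a library is not given. Nr4a1 was most like Tgif1 (r = 0.946), Dusp5 (0.940), Gadd45b (0.933), Kdm6b (0.930) and Nr4a3 (0.911). Nr4a3 was most like Dusp5 (0.926), Nr4a1 (0.911), Tgif1 (0.876), Gadd45b (0.874) and Gm26532 (0.836). Nr4a2 had other neighbors, 5430416N02Rik (0.867), Rgs16 (0.866), a brake on G protein signaling, Ier5l (0.854), Btg3 (0.839) and Txn1 (0.830), and its r with Nr4a1 was 0.155.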

How the data were processed

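Gene expression and T cell receptors were read from 1 gene expression and 1 receptor library per genotype. The authors aligned reads with Cell Ranger to GRCm38 and deposited raw counts of UMIs per gene and barcode, not normalized, and a count of UMIs per receptor contig. The labels name a 3′ kit and also a 5′ library, and the receptor contigs need the 5′ kit. The members and gene lists were chosen with earlier results of these data known. Named genes are the members, Pdcd1 and Tcf7, the 2 highest and 2 lowest of each list in CD8 cells, the 5 genes most like each member, and the 3 largest clonotypes per library.

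Cells had at least 600 genes and under 30% mitochondrial UMIs. UMIs were summed per gate and library (72098984 in the WT and 59916814 in the VISTA-KO table), which sets the precision. Intervals are exact Poisson for levels, conditional binomial for ratios and Clopper-Pearson for shares. No p-value was computed. Doublets were kept, and removed in an alternative (Scrublet in scanpy 1.11.5 by percentile 92 of its score, since its own threshold marked 1 cell, or 2 beta chains). Python 3.11.15, numpy 2.4.6, scipy 1.17.1 and matplotlib 3.10.9 were used. The steps were tested on simulated data.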

Additional observations from a re-analysis of the deposited data

How the results depend on the processing

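Of 141 values of the 12 log2 ratios under other settings, 139 lay above 0. Values that moved by less than the width of their main interval numbered 123. The exceptions below 0 were Nr4a2 in conventional CD4 cells under stricter gates (-0.13, against 0.17) and in Siglech cells without doublets (-0.12, against 0.34, whose interval included 0). The cause of these changes was not tested.

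With every cell weighted equally, log2 ratios were 1.65 for Nr4a1 and 0.90 for Nr4a2 in CD8 cells (against 1.55 and 0.73), and for Nr4a2 0.76 in conventional CD4 and 0.79 in regulatory cells (against 0.17 and 0.47). Without dividing cells, Nr4a1 was 1.70 in CD8 and 1.86 in regulatory cells (against 2.02), and Nr4a2 was 0.88 in CD8, 0.83 in conventional CD4 and 0.75 in regulatory cells. With every clonotype weighted equally the CD8 values were 1.68 for Nr4a1 and 1.09 for Nr4a2, and without the largest clonotype Nr4a2 was 0.56. With the same mix of Pdcd1 and Tcf7 cells in both libraries Nr4a2 was 0.52 in conventional CD4 and 0.85 in regulatory cells, and without doublets 0.21 in regulatory cells. Without cells that had a Cd8a or Cd8b1 UMI, chosen after seeing the data, Nr4a1 was 1.81 in regulatory and Nr4a2 1.13 in conventional CD4 cells. Leaving out cells with a melanoma UMI, barcodes found in both libraries or, for Siglech cells, a Cd3e UMI was also chosen after seeing the data.

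At 4000 UMIs per cell the differences in shares were 23.2 percentage points for Nr4a1 and 10.2 for Nr4a3 in CD8 cells, and for Nr4a3 12.7 in conventional CD4 and 16.5 in regulatory cells. For Nr4a2 the difference in conventional CD4 cells was 1.93 (-1.48 to 5.22, against 4.35 at 2000 UMIs) and in Siglech cells -0.27 (against 3.11), both with intervals that included 0. With Pdcd1 read at 2000 UMIs, the ratios by Pdcd1 were 0.849 and 0.637 for Nr4a1 and 2.16 and 2.19 for Nr4a2 in WT and VISTA-KO CD8 cells. Genes past a log2 ratio of 1 in CD8 cells numbered 36, and 20 with a floor of 50 CPM and 59 with a floor of 5 CPM. The pathway lists had no other setting. No paired analysis was possible because each genotype has 1 library.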
